A study of Homo sapiens
Mus musculus with 2 samples.

Results

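Colonocytes low in Reg3 and Atp12a are here barcodes picked by transcripts of absorptive cells of the colon that held few transcripts of the antimicrobial lectins Reg3b and Reg3g. They also held few of Atp12a, Slc37a2 (a sugar phosphate exchanger) and Fxyd4. The name is that of the rule, and some of these barcodes were rich in goblet cell transcripts, as described below. They were chosen from measured values: a barcode counted as a colonocyte with at least 3000 unique molecular identifiers (UMIs, each marking 1 captured molecule), less than 20% of them from mitochondrially encoded genes, under 20000 CPM of the goblet gene Zg16 and at least 2500 CPM of Prdx6 (a peroxiredoxin), Tgm3 (a transglutaminase) and Ces2c (a carboxylesterase) together, where CPM is a gene's UMIs scaled to a barcode total of 1e6. Of these 488 colonocytes, the 229 with Reg3b and Reg3g under 1500 CPM and Atp12a, Slc37a2 and Fxyd4 under 700 CPM form the low group, out of 2402 barcodes in all. They were compared with the colonocytes above the second limit only (Atp12a-rich, 196 barcodes) and above the first only (Reg3-rich, 57), taken from the same 2 libraries. The libraries, replicates 1 and 2, come from 1 untreated wild-type C57Bl6 mouse. Its colonic epithelium was dissociated with EDTA, collagenase and DNase, enriched for viable cells, mixed with cells of the human line K562 and encapsulated with inDrop, a droplet method. All groups share this animal and preparation. The p-values therefore rest on how differences between groups vary between 2 libraries of 1 mouse, a spread that may be technical.

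Colonocytes take up water, salt and short-chain fatty acids and are shed from the surface after migrating up from the crypt, gaining transporters such as the chloride-bicarbonate exchanger Slc26a3 and the carbonic anhydrase Car4 as they mature. Reg3b and Reg3g are secreted lectins that bind bacteria, and Atp12a is the catalytic subunit of the colonic proton-potassium pump, and Fxyd4 belongs to a family of small regulators of ion pumps. Aquaporins such as Aqp8 and Aqp4 carry water, and guanylin, encoded by Guca2a, signals through a guanylate cyclase to control chloride and fluid movement.

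Replicate 1 gave 180 low barcodes and replicate 2 gave 49. They made up 49.9% of colonocytes in replicate 1 (95% exact binomial interval 44.6 to 55.1) and 38.6% in replicate 2 (30.1 to 47.6), intervals that cover counting error only. The share follows the limits: with 1000 and 500 CPM it was 38.8% and 27.6%, and with 2000 and 1000 CPM it was 60.9% and 48.0%. Median depth was 6688 and 8834 UMIs in the low group, 6041 and 7749 in the Atp12a-rich and 7466 and 5557.5 in the Reg3-rich. Members of the 2 libraries differed. The median sum of Prdx6, Tgm3 and Ces2c was 6771 CPM in replicate 1 and 3756 in replicate 2, and 35 members (19.4%) and 29 members (59.2%) lay under 4000 CPM, against 2 and 1 of the Atp12a-rich barcodes. The median mitochondrial share was 5.21% and 9.51%. Levels below are therefore given for each library, replicate 1 first.

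The sums used for the choice describe the group and support nothing else. No Reg3b or Reg3g UMI was found in 138 members of replicate 1 and 32 of replicate 2, and none of Atp12a, Slc37a2 or Fxyd4 in 66 and 17. The limit of 700 CPM corresponds to 2.1 UMIs in a barcode of 3000 UMIs, so a few molecules separate the groups in shallow barcodes. The 3 members nearest the Reg3 limit held 1316, 1365 and 1397 CPM and the 3 barcodes beyond it 1537, 1763 and 1774. For the Atp12a limit the nearest were 692, 695 and 696 inside and 711, 721 and 721 outside. The nearest to the colonocyte limit were 2504, 2507 and 2512 CPM inside and 2458, 2466 and 2499 outside. Summed over barcodes, Atp12a stood at 175 and 148 CPM in the low group and at 1011 and 1492 in the Atp12a-rich. Reg3b stood at 45.5 and 48.7 CPM, against 4132 and 3829 in the Reg3-rich.

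**Figure D1:**
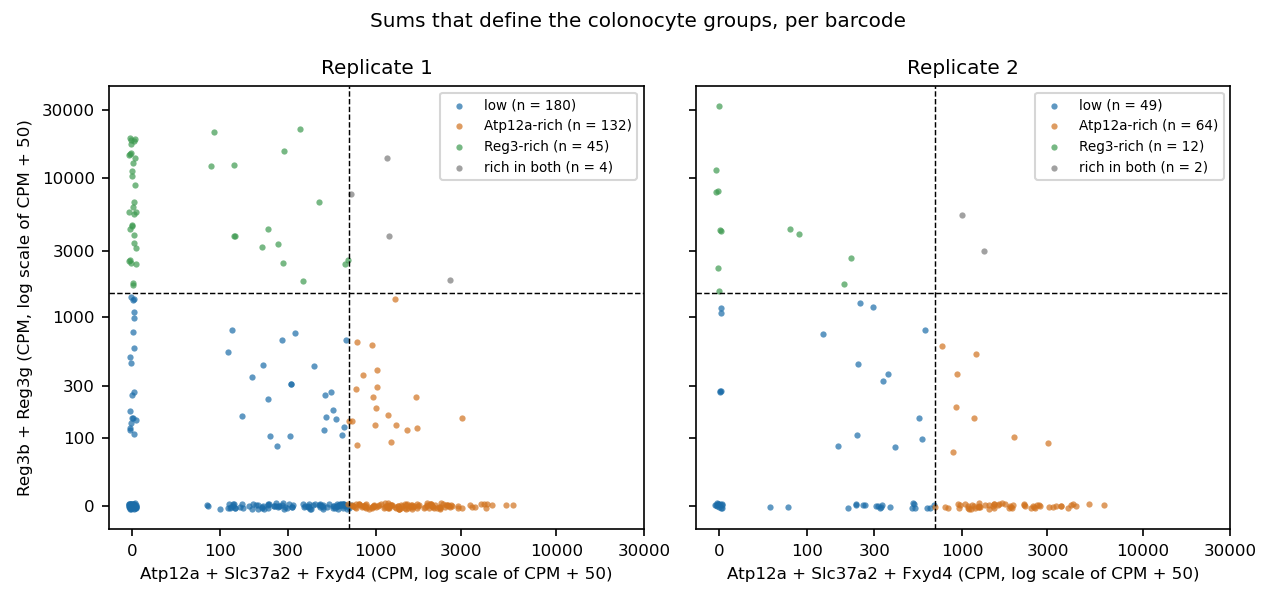
Each point is 1 colonocyte barcode, placed by its summed CPM of Atp12a, Slc37a2 and Fxyd4 (horizontal) and of Reg3b and Reg3g (vertical), both on a log scale after adding 50 CPM, with a small random shift; dashed lines mark 700 and 1500 CPM. The low barcodes (180 and 49) fill the lower left corner and run up to both limits without a gap, and 4 and 2 barcodes are rich in both.

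The 4 markers named for these cells (Aqp8, Guca2a, Cyp2c55, Krt20) mark colonocytes as a whole. In the tests below Aqp8 and Guca2a passed against the Atp12a-rich group and Cyp2c55 against the Reg3-rich group. None of the 4 passed against both groups. Krt20, the keratin of mature surface cells, stood at 5686 and 3003 CPM in the low group, 5242 and 4533 in the Atp12a-rich and 5937 and 5505 in the Reg3-rich, against 758 and 772 CPM in the deep barcodes outside the colonocyte rule. Aqp8 stood at 1290.1 and 253 CPM in the low group, 1347 and 1775 in the Atp12a-rich, 902 and 1421 in the Reg3-rich and 63.3 and 93.4 in the other deep barcodes. The 2 libraries of the low group thus span the range of Aqp8: replicate 1 lay among the other colonocytes and replicate 2 below all of them. Guca2a stood at 2555 and 1782 CPM, between the Atp12a-rich (989 and 1062) and the Reg3-rich (2988 and 3185). Cyp2c55, a cytochrome P450 of the colon, stood at 146 and 53.3 CPM, below both Reg3-rich values (287 and 222). Every member held at least 1 of the 4 markers and 41 of 180 and 8 of 49 held all 4, against 9 of 757 and 10 of 262 of the other deep barcodes. All 4 were held by 14 of 132 and 10 of 64 Atp12a-rich barcodes and by 23 of 45 and 6 of 12 Reg3-rich barcodes. Of 16 colonocyte markers, a member thinned to 3000 UMIs held a median of 11 (replicate 1) or 9 (replicate 2), against 3 and 4 in the other deep barcodes. Members thus carried colonocyte markers in both libraries, fewer of them in replicate 2.

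**Figure D2:**
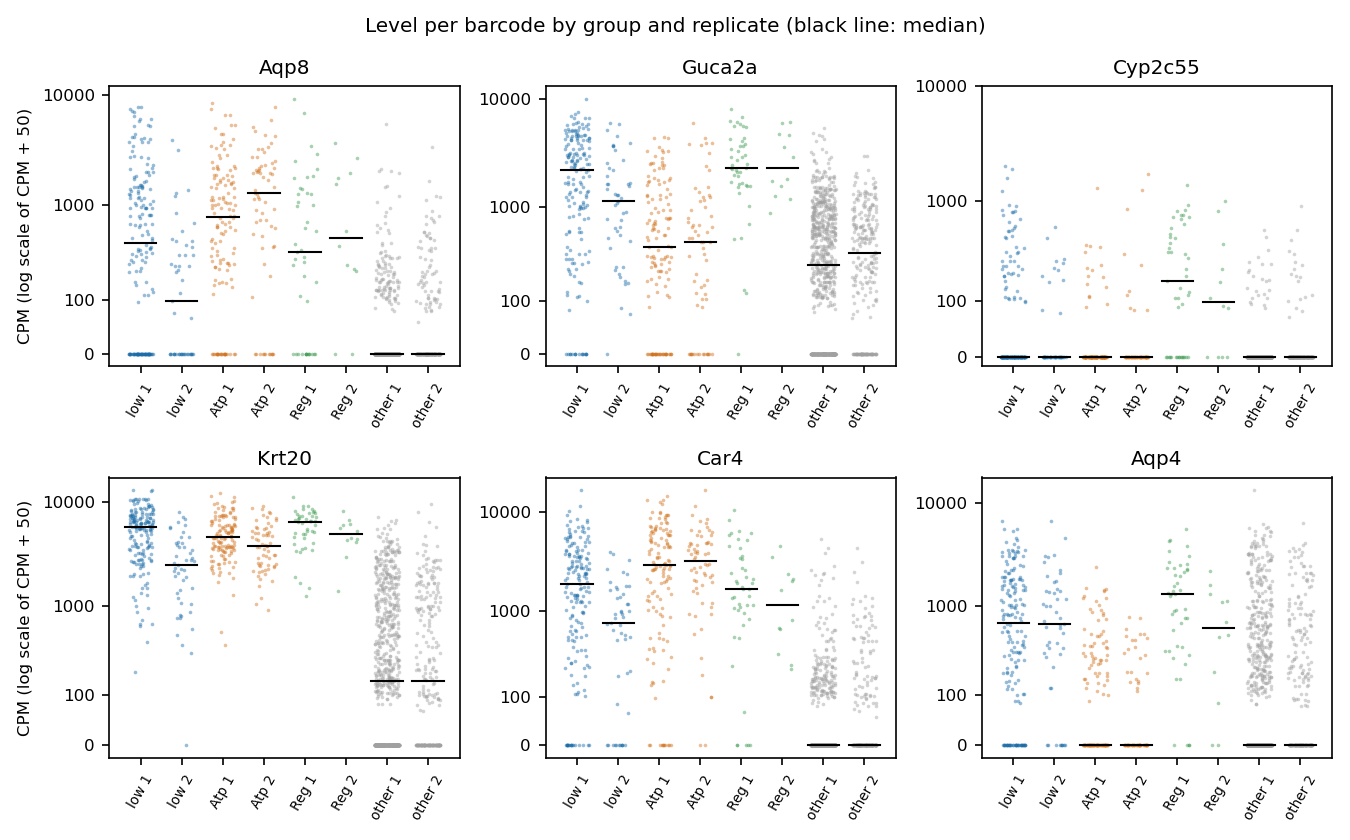
CPM per barcode of the 4 named markers, Car4 and Aqp4 on a log scale after adding 50 CPM, for the low, Atp12a-rich (Atp), Reg3-rich (Reg) and other deep barcodes of replicates 1 and 2; black lines are medians. Krt20 and Aqp8 are spread in all 3 colonocyte groups, while the median of Aqp4 is 685 and 671 CPM in the low group and 0 in both Atp12a-rich libraries.

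Against the Atp12a-rich colonocytes, the low group was higher in the water channel Aqp4, in guanylin and in 48 of 79 ribosomal protein genes, and lower in Aqp8, Car4, the calcium-activated chloride channel relatives Clca4a and Clca4b and 9 of 29 antimicrobial genes. In all, 270 of 10436 genes tested passed an adjusted p of 0.05 in edgeR's quasi-likelihood test with Benjamini-Hochberg adjustment (2.59% of those tested), 125 higher (1.2%) and 145 lower (1.39%) in the low group; 167 of them changed at least 2-fold. The rule's genes were left out of the tests, but the others were counted in the same barcodes, and genes regulated together with the rule's genes are not independent of it. Scaling to total UMIs instead of TMM factors moved the median log2 fold change of all genes from 0.003 to 0.18 and the share of calls that were higher from 46.3% to 70.0%. With at least 4000 CPM of Prdx6, Tgm3 and Ces2c, a limit added after seeing the data, 3 genes passed. The 4 sums used there held fewer barcodes (145 and 20 low, 130 and 63 Atp12a-rich). Other limits also left fewer barcodes but gave more calls. A mitochondrial share under 10% (159 and 25 low, 118 and 28 Atp12a-rich) gave 184 genes. At least 5000 UMIs (131 and 32 low, 88 and 49 Atp12a-rich) gave 191. Why so few passed at the 4000 CPM limit was not tested. Of the 267 main calls tested at the 4000 CPM limit, 266 kept their direction, with a median size of 0.85 on the log2 scale against 1.10. All these barcodes are also in the main result, so a kept direction is no independent support.

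Water and ion transport genes changed in both directions. Aqp4, a water channel of the basolateral membrane, stood at 1201 and 1309 CPM in the low group, 265 and 135 in the Atp12a-rich and 1499.7 and 699 in the Reg3-rich. Both low values lie above both Atp12a-rich values and between the Reg3-rich ones. The log2 fold change against Atp12a-rich was 2.53 ± 0.24 (SE, edgeR adjusted p = 6.4e-23), and it remained past the threshold at the 4000 CPM limit (2.03, adjusted p = 0.018). Aqp8, the apical water channel, went the other way (-1.31 ± 0.23, adjusted p = 4.7e-06), at -0.20 in replicate 1 and -3.01 in replicate 2 taken alone. Car4 stood at 2513 and 859.5 CPM against 3632 and 3768 (-1.47 ± 0.22, adjusted p = 3.2e-08), lower in both libraries. Clca4b stood at 484 and 315 CPM against 1150.4 and 1622 (-1.93 ± 0.22, adjusted p = 1.8e-14), and its relative Clca4a also fell (-1.21 ± 0.27, adjusted p = 0.0007), at -0.30 in replicate 1 and -3.05 in replicate 2. Slc26a3 stood at 2246 and 1077 CPM against 2545 and 2325 (-0.82 ± 0.22, adjusted p = 0.0093). The sodium-bicarbonate cotransporter Slc4a7 rose (185 and 262 CPM against 86.3 and 63.8; 1.34 ± 0.27, adjusted p = 0.0001). Of 27 tested genes for sodium, chloride and proton transport 2 rose and 6 fell, with a median log2 fold change of -0.26 beside 0.003 over all genes tested, and 4 rose and 6 fell when scaled to total UMIs (median -0.08); the epithelial sodium channel subunit Scnn1a (-0.78, adjusted p = 0.0505) did not pass.

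Of the guanylin pathway the ligand alone passed. Guca2a was higher than in the Atp12a-rich group by 0.88 ± 0.22 on the log2 scale (adjusted p = 0.0035), with both low values (2555 and 1782 CPM) above both others (989 and 1062). It passed also without the barcodes rich in goblet transcripts (1.04, adjusted p = 2.8e-05) but not at the 4000 CPM limit (1.04, adjusted p = 0.24). Its receptor Gucy2c (125 and 153 CPM against 163 and 118) and the chloride channel Cftr (15.7 and 11.6 against 7.30 and 9.96) did not pass. Of 7 tested genes of this pathway 1 rose and none fell, with a median of 0.58 beside 0.003 over all genes.

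Few absorption genes passed. Fabp2, the intestinal fatty acid binding protein, stood at 340 and 169 CPM in the low group, 79.0 and 97.6 in the Atp12a-rich and 562.005 and 688 in the Reg3-rich. Low values lay between the other groups in both libraries, with a log2 fold change of 1.38 ± 0.26 against Atp12a-rich (adjusted p = 2.9e-05). Fabp6, a bile acid binding protein, stood at 97.2 and 88.0 CPM against 719 and 177 (-2.33 ± 0.27, adjusted p = 6.7e-15); 1 barcode held 19 of the low group's 38 UMIs of Fabp6 in replicate 2. The peptide transporter Slc15a1 (173 and 48.7 CPM against 366 and 315; -1.81 ± 0.25, adjusted p = 1.3e-09) and the phosphate transporter Slc34a2 (49.4 and 30.1 against 116 and 122; -1.64 ± 0.31, adjusted p = 2.7e-05) fell. Of 24 nutrient and other carriers none rose and 3 fell, namely Slc15a1, the phosphate carrier Slc20a1 and the choline transporter-like Slc44a4 (median -0.17, and 0.01 scaled to total UMIs). The butyrate transporters Slc5a8 (491 and 426 CPM against 465 and 359) and Slc16a1 (318 and 283 against 208 and 179) did not pass. Of 28 genes of fatty acid oxidation and ketogenesis only Fabp2 passed (median 0.03); scaled to total UMIs 4 passed, all higher (median 0.21).

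Detoxification enzymes moved in both directions. The glutathione transferase Gstm1 stood at 83.9 and 109 CPM against 23.1 and 31.9 (1.62 ± 0.35, adjusted p = 0.00043), and the sulfotransferase Sult1a1 rose too. The carboxylesterases Ces2a and Ces2e, relatives of the rule's Ces2c, the cytochromes Cyp2d9 and Cyp2d34 and the efflux pumps Abcb1a and Abcg2 fell. Of 42 tested, 2 rose and 6 fell (median -0.09); scaled to total UMIs, 5 rose and 2 fell (median 0.09). Of the brush border genes 26 of 30 had a negative log2 fold change (median -0.41), and 4 fell, among them the membrane mucin Muc13 (6421 and 4071 CPM against 9434 and 7718; -0.93 ± 0.22, adjusted p = 0.0018) and the peptidase Ace. The bundling protein Vil1 and the motor Myo1a did not pass (-0.22 and -0.06).

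Among host defence genes most of those that passed fell. Saa1, an acute phase protein, stood at 5595 and 2372 CPM in the low group, 10411 and 8354 in the Atp12a-rich and 4283 and 4184 in the Reg3-rich (-1.50 ± 0.22 against Atp12a-rich, adjusted p = 1.2e-08). Lypd8, which binds flagella, stood at 22800.2 and 11969 CPM against 31723 and 24032 (-0.91 ± 0.22, adjusted p = 0.0035). The hydrogen peroxide source Duox2 (600.4 and 334 CPM against 914 and 966; -1.22 ± 0.22, adjusted p = 1.2e-05), its maturation factor Duoxa2 and the nitric oxide synthase Nos2 fell with it. Of 29 antimicrobial and acute phase genes 1 rose and 9 fell (median -0.53), against 0 and 2 with DESeq2. The one that rose was Mptx1, a pentraxin also expressed by secretory cells of the crypt, and its fold change turned to -0.30 without barcodes rich in goblet transcripts. The call for Cxcl5 among the 9 rests on 1 Atp12a-rich barcode of replicate 1, which held 34 of the 40 UMIs there, and turned direction without that replicate. Of 35 antigen presentation and interferon genes none rose and 6 fell, including Gbp2 (166 and 123 CPM against 412 and 375; -1.65 ± 0.24, adjusted p = 1.2e-08) and the class II chain H2-Aa (-0.93 ± 0.22, adjusted p = 0.0016), with a median of -0.35; with DESeq2 1 fell, and scaled to total UMIs 3 fell. The ubiquitin-like Ubd stood at 151 and 46.3 CPM against 287 and 307 (-1.81 ± 0.26, adjusted p = 4.6e-09).

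Of 43 tested genes for keratins, junctions and surface shedding 2 rose and 8 fell (median -0.36); scaled to total UMIs 2 rose and 3 fell (median -0.17). The cornified envelope genes Sprr2a2 (15668 and 11902 CPM against 20882 and 28170; -0.98 ± 0.22, adjusted p = 0.0014) and Sprr2a3 fell, as did the transglutaminase Tgm2, the gasdermin Gsdmd and the ligand Bmp2. The claudin Cldn15, of the pore-forming kind, stood at 24.3 and 44.0 CPM against 4.86 and 11.95 (1.83 ± 0.55, adjusted p = 0.038). It did not pass without the barcodes rich in goblet transcripts (2.06, edgeR adjusted p = 0.37) or at the 4000 CPM limit (1.48, edgeR adjusted p = 0.71). Emp1, a membrane protein, stood at 629 and 232 CPM against 167 and 217 and passed (1.03 ± 0.24, adjusted p = 0.0017), but the groups overlapped, with -0.15 in replicate 2 alone. Mal, a protein of apical transport, stood at 147 and 107 CPM against 20.7 and 67.7 (1.60 ± 0.30, adjusted p = 3.7e-05). Its difference was 2.26 in replicate 1 and 0.37 in replicate 2 taken alone, where 5 barcodes held 82.6% of the low group's 46 UMIs. The keratins Krt8 (8555 and 7379 CPM against 7740.2 and 7349.8), Krt18 and Krt19 did not pass. Of the metal and redox genes 1 of 22 rose, the transferrin receptor Tfrc (157 and 139 CPM against 68.1 and 41.8; 1.23 ± 0.29, adjusted p = 0.0018). None of 18 glycolysis genes and none of 20 cholesterol synthesis genes passed.

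Ribosomal protein transcripts were higher, in a list added after seeing the data: 48 of 79 tested rose, none fell and 76 had a positive log2 fold change (median 0.79). With DESeq2 5 passed and with no block 8, at medians of 0.80. Summed, they made 31172 and 47861 CPM in the low group, 20462 and 18523 in the Atp12a-rich and 31200 and 26748 in the Reg3-rich, against 80275 and 78973 in the other deep barcodes. Rpsa (211 and 565 CPM against 77.8 and 157; 1.45 ± 0.25, adjusted p = 2.5e-06) and Rpl27a (672 and 1073 against 306 and 265; 1.40 ± 0.23, adjusted p = 4.0e-07) led. The translation factor Eef1a1 rose by 1.10 ± 0.22 (adjusted p = 9.8e-05). At the 4000 CPM limit none of 77 passed and 72 were positive, with a median of 0.53. The intestinal transcription factor Cdx2 (336 and 257 CPM against 139 and 93.6) rose by 1.17 ± 0.25 (adjusted p = 0.0004), while Hnf4a (571 and 426 against 550 and 464) and Klf4 did not pass. Isx, a factor that represses vitamin A uptake, had 17 and 8 UMIs against 0 and 1. Of 22 immediate early genes, which dissociation of tissue can induce, 4 rose (Jun, Egr1, Ier2 and Dusp1) and none fell. Jun stood at 344 and 429 CPM against 154 and 110 (1.35 ± 0.24, adjusted p = 1.1e-05). The part of dissociation in these levels was not tested. Of 15 cycling markers Hmgb2 and Stmn1 rose; the fold change of Hmgb2 turned to -0.19 at the 4000 CPM limit, and that of Stmn1 was 1.81 against 2.09 without barcodes rich in goblet transcripts, where it did not pass (adjusted p = 0.34).

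**Figure D3:**
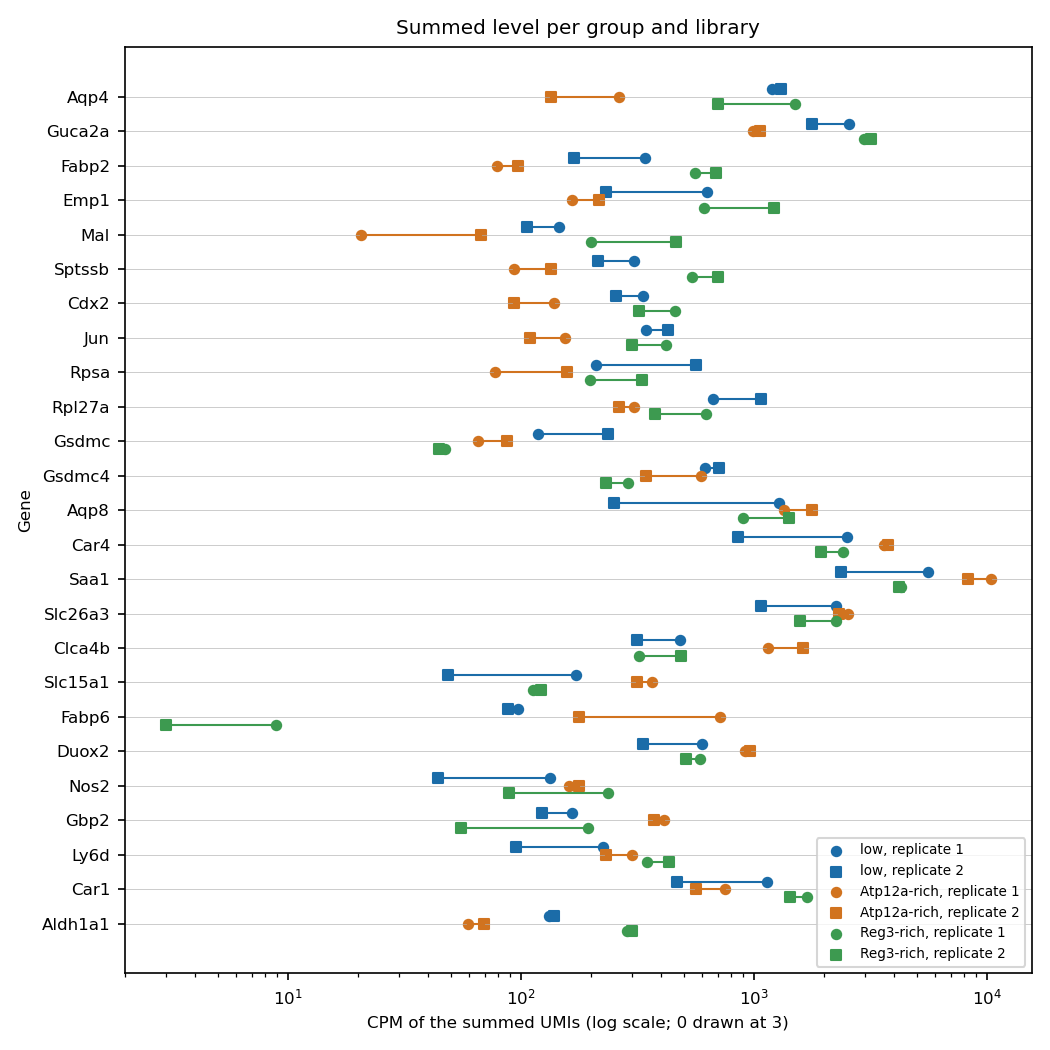
CPM of summed UMIs (log axis) for 25 named genes in the low (blue), Atp12a-rich (orange) and Reg3-rich (green) groups; circles are replicate 1 and squares replicate 2, joined by a line. For Fabp2 and Sptssb the low values (340 and 169 CPM for Fabp2) lie between the groups, while both low values of Aqp4 (1201 and 1309) are far above the Atp12a-rich ones.

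Against the Reg3-rich colonocytes fewer genes differed, from a group of 45 and 12 barcodes and 90102 UMIs in replicate 2. In all 34 genes passed (0.326% of 10436), 15 higher (0.144%) and 19 lower (0.182%) in the low group. The lower ones included 3 of 42 detoxification genes and 1 of 28 fatty acid genes. The cytochrome Cyp2c55 fell by 1.28 ± 0.28 on the log2 scale (edgeR adjusted p = 0.0025) and Cyp2c65 (55.6 and 23.2 CPM against 139 and 144) by 1.66 ± 0.36 (adjusted p = 0.0018). The retinaldehyde dehydrogenase Aldh1a1 stood at 132 and 139 CPM against 287 and 299.7 (-1.11 ± 0.28, adjusted p = 0.019). The carbonic anhydrase Car1 stood at 1139 and 470.3 CPM against 1701 and 1432 (-1.01 ± 0.22, adjusted p = 0.0025). Fabp2 fell by 1.23 ± 0.24 (adjusted p = 0.00032), and Sptssb, a subunit of serine palmitoyltransferase, by 1.17 ± 0.24 (215 to 305 CPM against 541 to 699). Low and Reg3-rich values of all 6 genes did not overlap, but the genes were picked for passing here, so this adds no support. The share of all tested genes without overlap was not counted. Ly6d, a surface protein, stood at 225 and 94.99 CPM against 349 and 433 (-1.20 ± 0.26, adjusted p = 0.0025) and was the lowest in the low group also against Atp12a-rich (300.4 and 231 CPM). Without the barcodes rich in goblet transcripts Cyp2c55 (-1.06, adjusted p = 0.091), Cyp2c65 (-1.40, adjusted p = 0.06) and Aldh1a1 (-1.004, adjusted p = 0.12) kept most of their size and missed the threshold, while Car1, Fabp2, Sptssb and Ly6d passed.

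Higher than in the Reg3-rich group were gasdermin C genes and a tight junction gene. The pore-forming gasdermins Gsdmc (118 and 236 CPM against 47.3 and 44.4; 1.69 ± 0.37, adjusted p = 0.0025), Gsdmc2 (94.8 and 132 against 26.6 and 22.2; 2.03 ± 0.45, adjusted p = 0.0029) and Gsdmc4 (618 and 707 against 290 and 233; 1.35 ± 0.26, adjusted p = 0.0001) rose. These are near-identical copies whose reads the counting could split between them, so single values are uncertain. Of the 3, Gsdmc was also higher than in the Atp12a-rich group (0.94 ± 0.27, adjusted p = 0.028), and Gsdmc2 (0.65, adjusted p = 0.37) and Gsdmc4 (0.34, adjusted p = 0.70) were not past the threshold there. The claudin Cldn8 stood at 256 and 313 CPM in the low group, between 473 and 394 in the Atp12a-rich and 115 and 33.3 in the Reg3-rich (1.64 ± 0.31 against Reg3-rich, adjusted p = 7.8e-05). The elastase Cela1 rose by 1.85 ± 0.39 (143 and 132 CPM against 41.4 and 33.3; adjusted p = 0.0015). Reg3-rich values of replicate 2 lie near the floor, as that sum held 90102 UMIs. Gsdmc2 had 2 UMIs in it and Gsdmc4 21, of which 1 barcode held 17. The values of Gsdmc, Cldn8 and Cela1 there also rest on a few UMIs. For Fabp6, 162 UMIs stood against 3 in the Reg3-rich group, a ratio of 13.5 per UMI counted (95% exact interval 4.55 to 66.3, counting error only). No list other than goblet and deep crypt markers, keratins and junctions (3 higher, 2 lower of 43), and antimicrobial genes (Wfdc2, 1 of 29) held a gene that rose. Ribosomal protein genes had a median of 0.38, none past the threshold, beside 0.05 over all genes.

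The largest falls against the Reg3-rich group belong to genes whose UMIs lie with Reg3b and Reg3g themselves. Asphd2 had 6 UMIs in the low group and 103 in the Reg3-rich (68.5 times as many per UMI counted, interval 30.4 to 191), Hoxb7 5 and 50 (39.9 times, 15.997 to 128), Chml 23 and 166 (28.8 times, 18.5 to 46.7) and St18 15 and 58 (15.4 times, 8.63 to 29.3). Barcodes with a Reg3b or Reg3g UMI made up 24.9% of replicate 1 and 33.1% of replicate 2, and held 91.8% and 86.8% of all Asphd2 UMIs and 89.9% and 94.5% of Hoxb7 UMIs. In the deep barcodes outside the colonocyte rule the share was 86.5% and 79.3% for Asphd2. Chml had 78.7% and 81.7% of its UMIs there and St18 81.6% and 58.8%, with 42.9% for St18 in the other deep barcodes of replicate 2. For Aven, Ubl4a and Syap1 the share was 42.6% to 64.0%. For other genes lower than in the Reg3-rich group, barcodes with a Reg3 UMI held 45.7% and 47.8% of Cyp2c55 UMIs and 43.0% and 49.8% of those of Fabp2. They held 49.5% and 45.2% of the Sptssb UMIs and 40.5% and 46.2% of those of Car1. The share of all UMIs in these barcodes was not counted, so shares of this size are not read as following Reg3. The rule's limit on Reg3 sets the groups and may bear on all values of this paragraph, so no difference independent of the rule can be read from them. The source of the pattern shared by Asphd2, Hoxb7, Chml and St18 was not tested.

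Taking the mean of the Atp12a-rich and Reg3-rich groups as the reference, 59 genes passed (0.565% of 10436), 43 higher (0.412%) and 16 lower (0.153%). This reference weighs both groups equally; with the other colonocytes summed into 1 group, 83 genes passed and the share that were higher changed from 72.9% to 36.1%. Aqp4 was higher in this comparison too (1.40 ± 0.19, edgeR adjusted p = 7.3e-10), and Gsdmc (1.31 ± 0.26, adjusted p = 0.00055), Gsdmc2 (1.34 ± 0.31, adjusted p = 0.0055) and 16 of 79 ribosomal protein genes rose; of the latter 2 passed after thinning to 3000 UMIs and 0 with DESeq2 or with no block, with medians of 0.58 to 0.65. Ly6d (-1.05 ± 0.22, adjusted p = 0.0015), Nos2 (134 and 44.0 CPM against 162 and 177 and 237 and 88.8; -1.02 ± 0.24, adjusted p = 0.0097), Car4 (-0.96 ± 0.20, adjusted p = 0.00097) and Saa1 (-0.83 ± 0.20, adjusted p = 0.0083) fell. Aqp8 fell by 0.96 ± 0.21 (adjusted p = 0.0021), but the difference was 0.16 in replicate 1 alone. A call against the mean need not hold against each group. Against the Reg3-rich group alone, Aqp4, Nos2, Car4, Saa1, Aqp8 and the ribosomal protein genes did not pass. For Aqp4 the low values (1201 and 1309 CPM) lay between the Reg3-rich ones (1499.7 and 699). Of 16 colonocyte markers none rose and 3 fell (median -0.41), and all 30 brush border genes had a negative log2 fold change (median -0.35), none past the threshold. The 3 comparisons share the low sums, so their calls are not independent of each other.

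Goblet and deep crypt secretory genes were also among the genes higher in this comparison, and they were unevenly spread among members. Muc2, the gel-forming mucin, stood at 1184 and 2196 CPM in the low group, 561 and 735 in the Atp12a-rich and 432 and 699 in the Reg3-rich, against 16392 and 12111 in the other deep barcodes (1.35 ± 0.18 against the mean of the others, edgeR adjusted p = 7.3e-10). Agr2, a disulphide isomerase of goblet cells, stood at 301 and 816 CPM against 93.6 and 217 and against 104 and 255 (1.61 ± 0.21, adjusted p = 7.9e-11). Spink4, Reg4, Txndc5, Sval1, Cd24a and Klk1 rose by 1.18 to 1.32. All 11 tested goblet markers had a positive log2 fold change (median 0.98) and 3 passed; of 9 deep crypt secretory markers 4 passed. The summed goblet markers made 4091 and 6714 CPM in the low group, where none of them was at 0, 2504 and 3708 in the Atp12a-rich and 1852 and 3796 in the Reg3-rich.

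Most members held few of these transcripts. Leaving out Zg16, the median goblet marker sum per barcode was 824 and 1144 CPM in the low group, 919 and 658 in the Atp12a-rich and 615 and 678 in the Reg3-rich, so that it was above both other groups in replicate 2 and below the Atp12a-rich in replicate 1, against 30494 and 22423 in the other deep barcodes. A sum of at least 5000 CPM was found in 17 (9.44%) and 18 (36.7%) low barcodes, 4 (3.03%) and 8 (12.5%) Atp12a-rich barcodes and 3 (6.67%) and 2 (16.7%) Reg3-rich barcodes. Of these 35 members, 19 lay under 4000 CPM of the colonocyte sum. Their median doublet score (the share of artificial barcode pairs among the nearest neighbours) was 0.94 and 0.78, against 0.56 and 0.64 in the other members. Their median depth was lower, at 5058 and 4001.5 UMIs against 6741 and 9615. Whether these barcodes hold RNA of 2 cells was not tested. The 5 richest barcodes held 43.0% and 46.7% of the low group's Muc2 UMIs and 79.8% and 71.4% of its Reg4 UMIs. Leaving out all barcodes of at least 5000 CPM, an alternative added after seeing the data, gave 34 calls in place of 59, 26 of them among the 59. The goblet markers set that limit and are not read under it. Txndc5 (-0.18), Sval1 (-0.36) and Mptx1 (-0.019) turned direction; against Atp12a-rich and Reg3-rich 208 and 25 genes passed in place of 270 and 34. Aqp4 (1.57, adjusted p = 2.9e-14), Gsdmc (1.49, adjusted p = 0.00013) and Gsdmc2 (1.59, adjusted p = 0.00073) still passed against the mean of the others. Ribosomal protein genes passed against Atp12a-rich in 33 of 78 cases.

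Members varied widely among themselves. The quartiles of Guca2a were 577 and 4188 CPM in replicate 1 and 469 and 2249 in replicate 2, and those of Car4 540.4 and 3811 and 79.3 and 1492. After thinning to 3000 UMIs, the variance over the mean across members was 44.6 and 20.4 for Muc2, 38.6 and 15.6 for Reg4, 11.3 and 10.1 for Lypd8 and 14.1 and 7.19 for Saa1, against a median of 1.31 and 1.41 over 831 genes with a mean of at least 0.5 UMIs. The summed ribosomal protein level had quartiles of 13992 and 41212 CPM in replicate 1 and 24639 and 70574 in replicate 2. As a description across members, which share a library and whose CPM sum to a constant, it ran opposite to Krt20 (Spearman rho -0.62 over 180 and -0.68 over 49 members), Car4 (-0.73 and -0.55) and Saa1 (-0.67 and -0.45). Aqp4 ran weakly opposite to Car4 (-0.44 and -0.32), and Aqp8 ran with Car4 (0.57 and 0.53). The low group thus spans barcodes with high ribosomal and low Krt20, Car4 and Saa1 transcripts and barcodes with the reverse, in both libraries. Between the ribosomal level and Aqp8 rho was -0.58 in replicate 1 and -0.21 in replicate 2. Members with at least 5000 CPM of goblet markers had a lower median Krt20 (1956 and 1473 CPM, against 6114 and 3258 in the others). Their part in these relations was not tested.

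**Figure D4:**
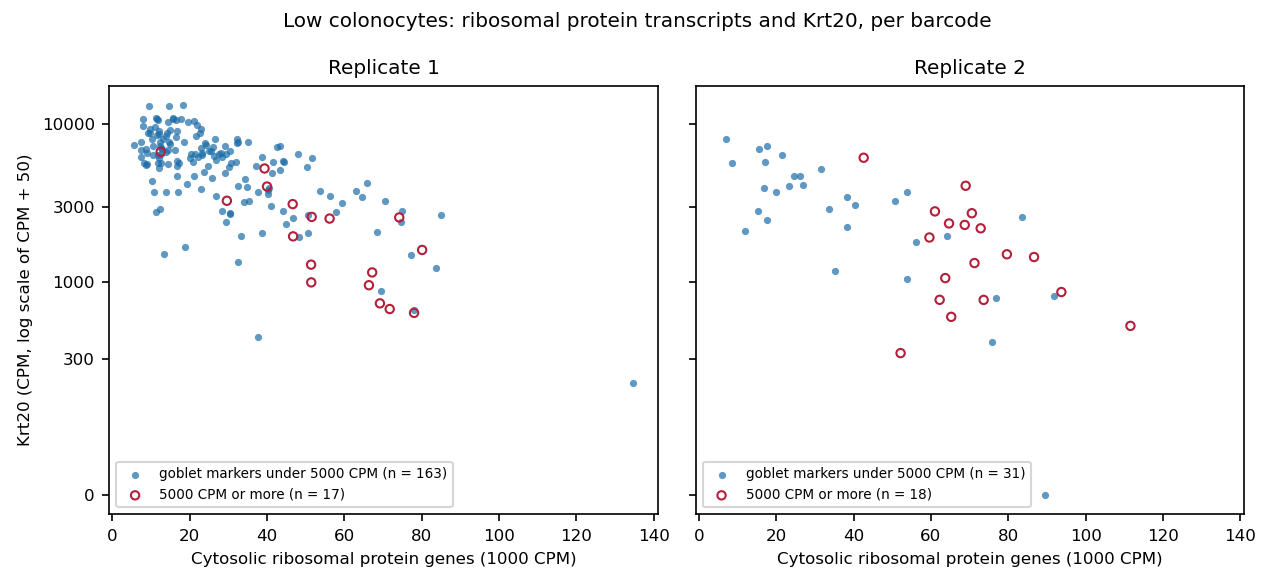
Each point is 1 low colonocyte, placed by its summed CPM of cytosolic ribosomal protein genes (horizontal, in 1000 CPM) and its Krt20 CPM (vertical, log scale after adding 50 CPM); open red circles are members with at least 5000 CPM of goblet markers (17 and 18). Krt20 is lower where ribosomal protein transcripts are higher (rho -0.62 and -0.68), and the goblet-rich members have the higher median on the horizontal axis (51530 and 68859.5 CPM, against 22888 and 31514).

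Markers of other cells were scarce in members and in the other colonocytes. The 12 T cell markers summed to 51.7 and 92.7 CPM in the low group, with 1 and 3 of them at 0, 65.7 and 205 in the Atp12a-rich and 47.3 and 144 in the Reg3-rich. Enteroendocrine markers summed to 58.0 and 34.8 CPM in the low group, tuft cell markers to 91.7 and 176, stem cell markers to 120 and 250.2, B and plasma cell markers to 19.6 and 30.1, myeloid markers to 29.0 and 71.8, stromal markers to 41.5 and 83.4 and red cell markers to 3.92 and 11.6. Few of these markers reached the 20 UMIs needed for a test: 4 of 12 T cell, 4 of 12 tuft, 4 of 12 enteroendocrine, 7 of 10 stem cell, 1 of 8 B and plasma cell, 1 of 9 myeloid, 2 of 11 stromal and 0 of 5 red cell markers. None of those tested passed in the 3 comparisons over all barcodes.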

How the data were processed

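The authors deposited, per library, whole-number UMI counts per gene and barcode, as the file values show. The submitters' processing notes list GRCm38 and GRCh38 as genome builds. The aligner, annotation, strand of counting and barcode filter were not given in the sources used here, so counts of overlapping, antisense and near-identical genes are uncertain. The members, gene lists and tests were chosen with earlier results of these data known. UMIs were summed per library and group (6 sums of 90102 to 1275867 UMIs); the 6 barcodes rich in both were too few to fit. The 10436 genes with at least 20 UMIs, without the rule's genes, were tested with edgeR 4.0.16 (glmQLFit, TMM, R 4.3.3), with the library as a block because all groups come from the same libraries (2 residual degrees of freedom), and Benjamini-Hochberg adjustment; single errors are SE. The script was checked on artificial counts. Doublets were scored (50 neighbours) and kept in the main result; no barcode had the same counts in both libraries. Named genes were the 12 (8 for single groups) with the largest change in each direction that passed 0.05, changed at least 2-fold with the same sign in both libraries and reached 50 CPM, without Gm and Rik symbols, plus up to 6 per list and genes of explained role; those outside it were chosen after their values were seen. Alternatives were DESeq2 1.42.0, no block, other scaling, filters, depth, thinning and groups. No mouse sequence or coordinate was used here.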

Additional observations from a re-analysis of the deposited data

How the results depend on the processing

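With 6 sums of 1 mouse and 12 Reg3-rich barcodes in replicate 2, depth limits all 3 comparisons, and adjusted p-values rest largely on spread pooled over genes. Against the mean of the other colonocytes, the Atp12a-rich and the Reg3-rich, the counts of 59, 270 and 34 genes became 12, 71 and 21 with no replicate block and 5, 44 and 11 with DESeq2, which gave no adjusted p for 8700 genes in the Atp12a-rich comparison. Thinning to 3000 UMIs gave 13, 133 and 15. Only genes of at least 100 UMIs gave 12, 212 and 20. Scaling to total UMIs gave 94, 280 and 39, and a stricter low group (under 750 and 350 CPM) gave 103, 346 and 28. With the 4000 CPM limit 3 genes passed against Atp12a-rich, and without the goblet-rich barcodes 34 against the mean of the others. The remaining counts stayed within 1.5 times of the main ones. The share of higher calls moved from 72.9% to 83.1% without a filter on low counts and to 84.6% after thinning in the comparison with the mean of the others, and to 61.8% without goblet-rich barcodes. For Reg3-rich it moved from 44.1% to 60.6% without the filter, to 55.0% at 100 UMIs and to 27.3% with DESeq2. Limits of 5000 UMIs, 10% mitochondrial share and 4000 CPM left 7, 6 and 5 Reg3-rich barcodes in replicate 2, so comparisons with them gave no value. Leaving out a library leaves no residual degrees of freedom, so only values are given: Aqp8 against the mean of the others ranged from -2.72 to 0.16, Emp1 against Atp12a-rich from -0.15 to 1.73 and against Reg3-rich from -2.33 to 0.045, and Cxcl5 from -2.67 to 0.19. Without goblet-rich barcodes Txndc5 (-0.18), Sval1 (-0.36) and Mptx1 (-0.019) turned direction against the mean of the others and Reg4 (-0.24), Txndc5 (-0.44) and Mptx1 (-0.30) against Atp12a-rich, as did Hmgb2 (-0.19) at the 4000 CPM limit. The share of low barcodes moved to 38.8% and 27.6% with 1000 and 500 CPM, to 60.9% and 48.0% with 2000 and 1000 CPM, and in replicate 2 to 22.2% at 4000 CPM. Of 130 single-gene values, 18 moved by more than the SD between libraries without replicate 1 and 34 without replicate 2, and 4 reversed. The rest kept direction and stayed within that SD. An SD from 2 libraries grows with the difference between them, so staying within it does not show that a size was kept. The causes were not tested.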
